A study of Arabidopsis thaliana with 15 samples.

Results

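The aquaporins are the membrane channels through which plant cells pass water and small neutral solutes, and their transcripts were followed here across Arabidopsis rosettes of 5 genotypes. The genes were taken by locus from the count table, in which 35 of 33601 loci belong to the family: 13 plasma membrane intrinsic proteins (PIP), 10 tonoplast intrinsic proteins (TIP), 9 NOD26-like intrinsic proteins (NIP) and 3 small basic intrinsic proteins (SIP). A filter of more than 1 CPM (reads of the gene scaled to a common library total) in at least 3 of the 15 libraries kept 26 of them, namely 13 PIP, 5 TIP, 5 NIP and 3 SIP genes, among 18935 genes tested. Names follow the usual numbering with a hyphen, so that PIP1-1 is the gene also written with a semicolon between the digits.

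The study compared wild type (WT) with mutants of Mediator, which relays signals from transcription factors to the transcribing polymerase. ref4-1 and ref4-3 are single alleles of MED5B (also called REF4), a Mediator tail subunit, cdk8-1 is an allele of CDK8, the kinase of the Mediator kinase module, and ref4-3 cdk8-1 carries both mutations. All plants were of the Columbia-0 ecotype, grew at 23 C under 16 h light and 8 h dark, and were harvested on day 20, 6.5 h after subjective dawn. Each of the 3 libraries of a genotype came from polyadenylated RNA of 5 whole rosettes pooled from different pots, so a value is a mean over organs and cell types of the rosette. Each mutant is represented by 1 allele or allele pair.

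PIP proteins sit in the plasma membrane and carry water, and some carry carbon dioxide or hydrogen peroxide. TIP proteins sit in the vacuolar membrane and let water, and for some members ammonia or urea, into and out of the vacuole, which fills most of a mature leaf cell. NIP proteins carry small uncharged solutes such as boric acid, silicic acid and arsenite, while SIP proteins are found in the endoplasmic reticulum. PIP1 proteins depend in many plants on PIP2 partners to reach the plasma membrane.

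The pore of an aquaporin is lined by a pair of short loops that usually read asparagine, proline, alanine, and the last residue varies within the family. Read from the RefSeq coding sequences of TAIR10.1, the pair was present in all 35 loci. Both loops ended in alanine in 13 of 13 PIP and 10 of 10 TIP genes, in 4 of 9 NIP genes and in 0 of 3 SIP genes. Windows of 33 coding bases around both loops are shown 5′ to 3′ for 1 member of each kind, with the 3 codons of the loop in capitals, and the number after the name is that of the asparagine codon.
PIP2-1 codon 107, chromosome 3: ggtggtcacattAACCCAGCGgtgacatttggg
PIP2-1 codon 228, chromosome 3: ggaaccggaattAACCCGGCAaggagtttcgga
TIP2-1 codon 83, chromosome 3: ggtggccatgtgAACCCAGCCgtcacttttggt
TIP2-1 codon 197, chromosome 3: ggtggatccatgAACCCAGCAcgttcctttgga
NIP5-1 codon 137, chromosome 4: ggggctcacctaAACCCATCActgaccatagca
NIP5-1 codon 248, chromosome 4: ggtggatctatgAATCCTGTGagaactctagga
SIP1-1 codon 70, chromosome 3: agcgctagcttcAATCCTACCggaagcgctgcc
SIP1-1 codon 185, chromosome 3: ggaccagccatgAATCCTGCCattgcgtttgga
PIP2-1 and TIP2-1 keep alanine at both places (gcg and gca in PIP2-1, gcc and gca in TIP2-1). The boric acid channel NIP5-1 has serine (tca) and then valine (gtg), and SIP1-1 has threonine (acc) before alanine (gcc). Of the other tested NIP genes, NIP1-1 and NIP1-2 have alanine then glycine, NIP6-1 alanine then valine, and NIP7-1 serine then alanine.

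Library totals ran from 9573567 to 16803904 counts in genes, so that 1 count stood for 0.0595 to 0.1045 CPM, and 28203 to 50597 counts per library fell on the 35 aquaporin loci. CDK8 transcripts, the check of the cdk8-1 label, averaged 19.4 ± 1.28 CPM in WT against 4.502 ± 0.1698 in cdk8-1 and 5.405 ± 1.102 in ref4-3 cdk8-1 (SD, n = 3). The ref4 alleles cannot be checked by counts, and MED5B stood between 23.1 and 29.9 CPM on average in all 5 genotypes. MED5B had a log2 fold change of 0.27 in ref4-3 against WT. In the double mutant against ref4-3 it was called lower, at -0.37. Replicates differed by more than sampling noise in every pair, and replicate 3 of ref4-1 stood farthest from its group: its chi-square over degrees of freedom was 11.5 and 14.7, while other pairs had 2.67 to 6.20. Leaf markers were present at 23420 to 43530 CPM summed over 5 genes, while seed markers did not exceed 1.79 CPM summed over 8 genes.

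Rosettes of WT carried mostly vacuolar and plasma membrane aquaporins. Levels are compared here as normalised CPM per kilobase of the longest transcript, averaged over 3 WT libraries. TIP1-2 was highest at 818, followed by TIP1-1 at 385, the plasma membrane channels PIP1-2 at 299 and PIP2-1 at 271, and the vacuolar TIP2-1 at 263. PIP2-7 (204.5), PIP2-6 (120.7), PIP1-3 (108), PIP1-5 (95.4), PIP1-4 (84.5) and PIP1-1 (59.9) came next. Then came TIP2-2 (52.4), PIP2-2 (45.0), SIP1-1 (40.9), SIP2-1 (19.7), PIP2-3 (18.6), PIP2-8 (11.0) and NIP1-2 (9.86). PIP2-5 (7.05), NIP6-1 (5.47), NIP5-1 (3.39), SIP1-2 (2.37), PIP2-4 (1.87) and TIP4-1 (1.42) were low, and NIP7-1 (0.540) and NIP1-1 (0.419) lowest. Between neighbours in this order the 3 WT libraries overlapped for PIP2-1 with TIP2-1, PIP1-3 with PIP1-5, TIP2-2 with PIP2-2, PIP2-2 with SIP1-1 and SIP2-1 with PIP2-3. They also overlapped for PIP2-8 with NIP1-2, PIP2-5 with NIP6-1, NIP5-1 with SIP1-2, SIP1-2 with PIP2-4 and NIP7-1 with NIP1-1, whereas all other neighbours were separate. PIP2-6 was the seventh of 26 in WT at 120.7 CPM per kilobase, the fourth in ref4-3 at 119.6 and the third in ref4-3 cdk8-1 at 191.2, where most members above it in WT were lower.

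Summed over the family, aquaporin transcripts were lower in both ref4 alleles and in the double mutant, and the vacuolar TIP group was lowered most. Sums are given as normalised CPM, that is CPM after scaling by the trimmed mean of M-values (TMM). The 35 loci together, those under the filter included, summed to 4151 ± 132 in WT (SD, n = 3). They came to 67.01% of that level in ref4-1, to 54.8% in ref4-3, to 95.68% in cdk8-1 and, with both mutations together, to 63%. TIP genes stood at 1918 ± 95.5 in WT, and their sums were 62.44% of this for ref4-1, 44.82% for ref4-3, 79.69% for cdk8-1 and 43.21% for the double mutant. In each of the 4 mutants the TIP sums lay below every WT library.

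PIP genes summed to 2125 ± 57.9 in WT, against which ref4-1 had 70.17%, ref4-3 62.2%, cdk8-1 109.4% and the double mutant 79.07%. The PIP sums of ref4-1, ref4-3 and ref4-3 cdk8-1 lay below all WT libraries, and those of cdk8-1, from 2203 to 2483, above the WT range of 2071 to 2186. Within the PIP group, PIP1 genes stood at 69.57% and PIP2 genes at 87.47% of WT in the double mutant. SIP genes summed to 79.7 ± 2.68 in WT and to 85.7% of this for ref4-1, 83.52% for ref4-3, 105% for cdk8-1 and 88.24% for the double mutant. NIP genes were a small and different group: 29.0 ± 3.39 in WT, 125.1% in cdk8-1 and 125.4% in ref4-3 cdk8-1. All libraries of both genotypes lay above the WT range of 25.5 to 32.2. The NIP genes called higher in the tests below were NIP1-1 and NIP7-1 in cdk8-1, and NIP1-1 and NIP5-1 in the double mutant. NIP1-1 and NIP7-1 passed the filter with the help of cdk8-1 libraries, so their high level there is in part what let them be tested. The sums also hold genes that were not called. In cdk8-1 all 5 tested NIP genes had positive log2 fold changes and 2 were called. The uncalled NIP1-2 stood at 9.86 CPM per kilobase in WT and 11.59 in cdk8-1. In ref4-1 (86.48%) and ref4-3 (94.4%) the NIP sums overlapped WT, and the ref4-3 value turned to 106% when counts were scaled by library totals alone.

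**Figure D1:**
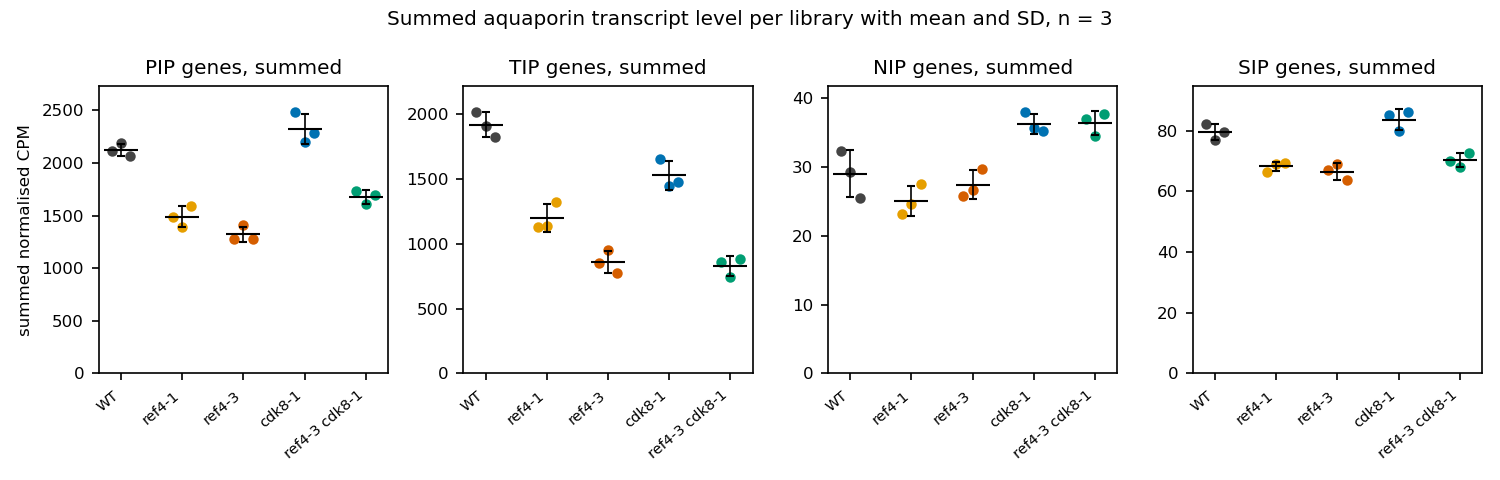
Summed normalised CPM of all PIP, TIP, NIP and SIP loci, those under the filter included, in each of the 15 libraries (points) with the group mean and SD, by genotype, each panel with its own linear axis. TIP sums were lower than WT in each mutant, and PIP sums were lower in the 3 genotypes with a ref4 allele. NIP sums were higher in both genotypes with cdk8-1, though the NIP genes called higher differed in part between them and the sums also hold NIP genes not called.

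Because members fell to different extents, the make-up of the family shifted. Per kilobase, TIP genes made up 51.9 ± 1.12% of family transcripts in WT (SD, n = 3). Their share was 49.2 ± 1.16% for ref4-1, 44.0 ± 1.38% for ref4-3, 44.4 ± 0.468% for cdk8-1 and 37.8 ± 1.33% for the double mutant. The PIP share went the other way, from 45.3 ± 1.19% in WT to 57.6 ± 1.27% in the double mutant. The NIP share was 0.672 ± 0.0664% in WT and 1.36 ± 0.0214% in the double mutant, and the SIP share went from 2.15 ± 0.0901% in WT to 3.43 ± 0.125% in ref4-3. No test was made of these shares.

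In whole rosettes, fewer cells of a type and less RNA per cell cannot be told apart. Sums of leaf markers, which are photosynthesis genes, differed from WT in the same direction as the PIP sums in each of the 4 mutants, whereas in cdk8-1 they were above WT and the TIP sums below. For these markers WT had 35440 to 35970 CPM, ref4-1 24900 to 31960, ref4-3 23420 to 25320, cdk8-1 40090 to 43530 and the double mutant 29870 to 30050, with 5 of 5 markers past the filter. Xylem markers (6 of 6 past the filter) summed to 94.7 to 110 CPM for WT, 66.9 to 77.1 for ref4-1, 61.7 to 88.2 for ref4-3, 142 to 155 for cdk8-1 and 111 to 147 for the double mutant. Single xylem markers had log2 fold changes from 0.13 to 1.205 in cdk8-1 and from -0.04 to 0.94 in the double mutant. In each of these genotypes 1 of the 6 was called, and it was higher. Phloem markers (4 of 4) summed to 361 to 404 CPM for WT, 333 to 429 for ref4-1 and 361 to 395 for ref4-3. Their sums were 289 to 309 for cdk8-1 and 297 to 358 for the double mutant. They were below WT in both genotypes with cdk8-1 but overlapped WT in ref4-1 and ref4-3, where the TIP sums were also below WT. Log2 fold changes of the single phloem markers ran from -0.89 to 0.08 in cdk8-1 and from -1.26 to 0.54 in the double mutant. Guard cell markers (5 of 5) summed to 71.0 to 73.6 CPM for WT, 60.2 to 74.0 for ref4-1 and 70.7 to 74.5 for ref4-3. In cdk8-1 they summed to 81.2 to 90.5 and in the double mutant to 72.7 to 78.2. Single guard cell markers moved in both directions, from -0.585 to 0.73 in cdk8-1 and from -0.47 to 0.50 in the double mutant. The part of all these markers in the results was not tested.

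Gene by gene, the comparisons with WT were made with edgeR's quasi-likelihood test over all 18935 genes, and a gene was called at a Benjamini-Hochberg adjusted p under 0.05. In ref4-1, 1 aquaporin was called higher and 13 lower, 53.8% of the 26 tested, against 20.9% of all genes. The median log2 fold change of the 26 was -0.46, against 0.02 over all genes. In ref4-3, 2 were higher and 16 lower, 69.2% against 39.9% of all genes, with a median of -0.68 against 0.02. With library totals in place of TMM the ref4-3 split became 6 higher and 16 lower. In cdk8-1, 5 were higher and 5 lower, against 19.8% of all genes called, with a median of 0.07 against 0.00. In ref4-3 cdk8-1, 4 were higher and 14 lower, against 42.6% of all genes called, with a median of -0.28 against 0.02. These 4 comparisons share the WT libraries.

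Lower calls outnumbered higher calls among aquaporins in 3 of the 4 comparisons, whereas the calls over all genes were split more evenly. Over all genes, 10.7% were higher and 10.2% lower in ref4-1, 20.3% and 19.6% in ref4-3, 8.06% and 11.8% in cdk8-1, and 21% and 21.6% in the double mutant. NIP7-1 passed the filter through its 3 cdk8-1 libraries and NIP1-1 through libraries of cdk8-1, ref4-3 cdk8-1 and ref4-3, so their difference is in part what let them in. Without both genes the counts were 3 higher and 5 lower of 24 in cdk8-1, and 3 higher and 14 lower in the double mutant with a median of -0.42. The 3 mutant libraries did not overlap the 3 WT libraries for 18 of 26 members in ref4-1 (32.6% of all genes), for 17 in ref4-3 (49.9%), for 11 in cdk8-1 (36.3%) and for 19 in the double mutant (53%).

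**Figure D2:**
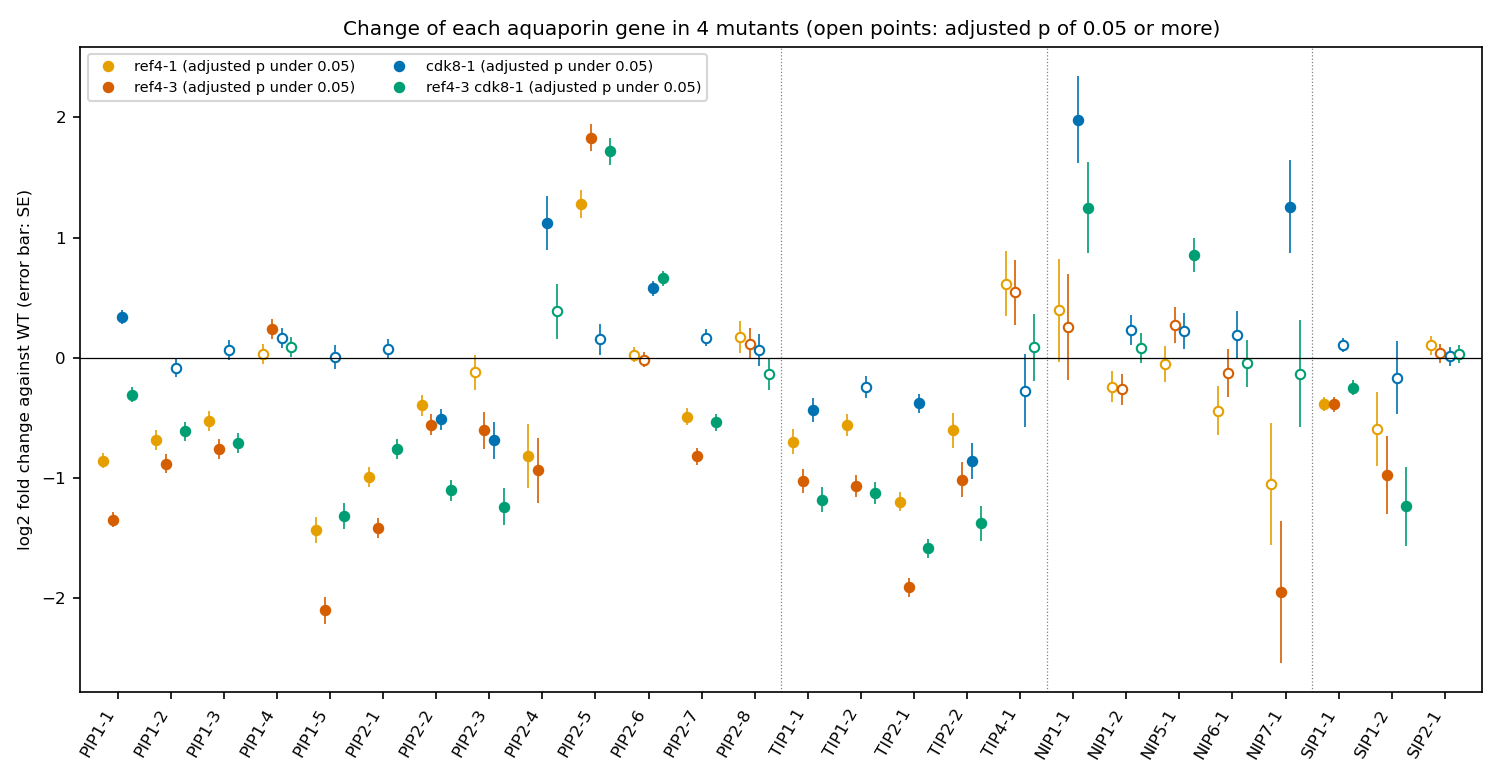
Log2 fold change against WT of each of the 26 tested aquaporins in the 4 mutant genotypes, with bars of 1 SE from the model and filled symbols for an adjusted p under 0.05. PIP1, PIP2 and TIP genes lie mostly below 0 in the genotypes with a ref4 allele, PIP2-5 lies above 0 in all 3 of those, and PIP2-6 lies above 0 in the 2 with cdk8-1.

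Some of the PIP1 water channels also take part in carbon dioxide entry. Among the PIP1 genes, 4 of 5 were called lower in each genotype with a ref4 allele. Means of normalised CPM are given ± SD over 3 libraries and log2 fold changes ± SE. PIP1-5 (AT4G23400, chr4:12220641-12222468, TAIR10.1, plus strand) fell most. Its normalised CPM were 117, 142 and 121 in the 3 WT libraries, 43.1, 41.9 and 57.2 in ref4-1 and 30.1, 28.8 and 29.9 in ref4-3. In cdk8-1 they were 134, 120.0 and 128, and in ref4-3 cdk8-1 58.7, 46.00 and 48.2. Both ref4 alleles and the double mutant were far below WT with no overlap, while cdk8-1 lay within the WT range. On the log2 scale PIP1-5 fell by 1.43 ± 0.11 (adjusted p = 2.84e-08) in ref4-1, by 2.1 ± 0.11 (adjusted p = 1.13e-10) in ref4-3 and by 1.31 ± 0.11 (adjusted p = 1.77e-08) in the double mutant. In cdk8-1 the change was 0.01 ± 0.10 (adjusted p = 0.977).

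PIP1-1 (AT3G61430, chr3:22733243-22735394, plus strand) was the PIP1 gene that moved in both directions. Its levels were 93.4, 97.8 and 88.5 CPM in WT, 51.9, 48.2 and 55.3 in ref4-1 and 36.2, 37.6 and 36.4 in ref4-3. In cdk8-1 the values were 122, 112 and 120.4, and in the double mutant 76.4, 76.1 and 73.9. The 5 groups did not overlap, with cdk8-1 above WT and the double mutant between WT and both ref4 alleles. PIP1-1 fell by 0.85 ± 0.062 (adjusted p = 1.69e-08) in ref4-1, by 1.34 ± 0.063 (adjusted p = 1.96e-11) in ref4-3 and by 0.30 ± 0.060 (adjusted p = 0.000497) in the double mutant, and rose by 0.34 ± 0.060 (adjusted p = 0.000431) in cdk8-1, all log2 fold changes against WT.

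PIP1-2, the most abundant PIP1 gene, averaged 451 ± 12.1 CPM in WT, with 282 ± 38.6 for ref4-1 and 246 ± 11.2 for ref4-3. Means were 426 ± 27.7 for cdk8-1 and 295 ± 16.2 for the double mutant. PIP1-2 fell by 0.88 ± 0.082 (adjusted p = 1.51e-07) in ref4-3 and by 0.61 ± 0.081 (adjusted p = 8.33e-06) in the double mutant on the log2 scale. PIP1-3 was likewise lower, with 168 ± 2.38 CPM in WT, 99.2 ± 5.899 in ref4-3 and 103 ± 3.497 in the double mutant, and fell by 0.76 ± 0.084 (adjusted p = 1.26e-06) and 0.71 ± 0.084 (adjusted p = 2.12e-06). PIP1-4, which is known to rise in drought-stressed Arabidopsis leaves, was the PIP1 gene that did not fall. It stood at 162, 159.8 and 153 CPM in WT and at 159, 218 and 184 in ref4-3, with a log2 fold change of 0.24 ± 0.083 (adjusted p = 0.0272) although the groups overlap. That call was lost when only both groups were fitted and without WT replicate 2, WT replicate 3 or ref4-3 replicate 2, with adjusted p up to 0.211.

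PIP2 genes encode the more active water channels of the plasma membrane, and they did not move as 1 group. PIP2-1 (AT3G53420, chr3:19803473-19805730, minus strand), one of the major leaf water channels, had 425, 453 and 399.9 CPM in WT, 234, 205 and 205 in ref4-1 and 166, 174 and 141 in ref4-3. Its values were 481, 416 and 452 in cdk8-1 and 264, 239 and 254 in ref4-3 cdk8-1. The 3 genotypes with a ref4 allele were separate from WT and lower, and cdk8-1 overlapped WT. PIP2-1 fell by 0.99 ± 0.083 (adjusted p = 1.15e-07) in ref4-1, 1.41 ± 0.084 (adjusted p = 4.13e-10) in ref4-3 and 0.76 ± 0.082 (adjusted p = 7.19e-07) in the double mutant on the log2 scale. PIP2-7, another abundant plasma membrane channel, averaged 328 ± 20.7 CPM in WT, 186 ± 5.79 in ref4-3 and 226 ± 4.78 in the double mutant, and fell by 0.82 ± 0.071 (adjusted p = 6.77e-08) and 0.54 ± 0.071 (adjusted p = 7.93e-06).

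PIP2-5 (AT3G54820, chr3:20301759-20304309, plus strand) moved against the rest of the group. This channel is known in Arabidopsis as one of the few PIP genes that rise in drought-stressed leaves. It had 13.7, 11.3 and 12.9 CPM in WT, 29.1, 26.95 and 37.1 in ref4-1 and 43.7, 45.02 and 46.1 in ref4-3. In cdk8-1 it had 14.8, 14.1 and 13.2 and in the double mutant 43.2, 36.7 and 44.9. All libraries with a ref4 allele were above all libraries without one, and cdk8-1 overlapped WT. PIP2-5 rose by 1.28 ± 0.12 (adjusted p = 2.98e-07) in ref4-1, 1.83 ± 0.11 (adjusted p = 6.2e-10) in ref4-3 and 1.72 ± 0.11 (adjusted p = 1.07e-09) in the double mutant on the log2 scale.

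PIP2-6 (AT2G39010, chr2:16291280-16294101, plus strand) rose with cdk8-1 instead. Its values were 264, 260.4 and 253 CPM in WT, 268, 255 and 271 in ref4-1 and 248, 269.5 and 253 in ref4-3, which overlapped each other. They were 411, 373 and 379 in cdk8-1 and 446, 395 and 391 in ref4-3 cdk8-1, above every library of the other 3 genotypes. The log2 fold change was 0.58 ± 0.064 (adjusted p = 3.59e-06) in cdk8-1 and 0.66 ± 0.064 (adjusted p = 1.58e-07) in the double mutant. In ref4-3 it was -0.01 ± 0.064 (adjusted p = 0.887), and 0.15 (adjusted p = 0.0427) when counts were scaled by library totals, where the median over all genes was also shifted up to 0.19.

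PIP2-4, known as a root channel in Arabidopsis, was scarce but rose in cdk8-1. It had 2.49, 2.45 and 3.195 CPM in WT, 1.59, 1.34 and 1.79 in ref4-1 and 1.05, 2.202 and 1.07 in ref4-3. The cdk8-1 libraries had 5.39, 6.64 and 5.76 and the double mutants 3.14, 3.24 and 4.31. The cdk8-1 libraries were above those of every other genotype, and the ref4-1 and ref4-3 libraries were below WT. PIP2-4 rose by 1.12 ± 0.22 (adjusted p = 0.00128) in cdk8-1 and fell by 0.93 ± 0.27 (adjusted p = 0.0104) in ref4-3 and by 0.81 ± 0.27 (adjusted p = 0.0369) in ref4-1 on the log2 scale. The ref4-1 call was lost under 7 alternatives (adjusted p up to 0.142) and the ref4-3 call without WT replicate 3, ref4-3 replicate 1 or ref4-3 replicate 3 (up to 0.0578). PIP2-8 stood at 16.3 ± 0.774 CPM in WT and between 14.8 and 18.4 CPM on average in the mutants, and did not pass the test in any comparison.

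PIP2-2 and PIP2-3 are neighbours on chromosome 2, at chr2:15613368-15615022 on the minus strand and chr2:15617635-15619155 on the plus strand, and their coding sequences are 94.8% identical, with 45 differences in 858 aligned bases. Their longest identical run is 242 bases, and 254 windows of 50 bases are shared between their transcripts, 19.6% of those of PIP2-2 and 21.7% of those of PIP2-3. The stretch of 90 coding bases with most differences is shown for both, with the 12 differing bases in capitals.
PIP2-2 coding bases 532 to 621: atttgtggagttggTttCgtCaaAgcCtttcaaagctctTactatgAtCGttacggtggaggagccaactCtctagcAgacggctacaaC
PIP2-3 coding bases 403 to 492: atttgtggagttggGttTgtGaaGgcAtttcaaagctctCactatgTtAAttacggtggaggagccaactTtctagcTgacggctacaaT
Reads from the identical stretches cannot be assigned to either gene, so values of the single genes are uncertain. PIP2-2 had 63.6, 53.3 and 64.6 CPM in WT, 43.3, 44.3 and 51.3 in ref4-1 and 41.6, 38.3 and 43.6 in ref4-3. It had 42.4, 43.3 and 41.8 in cdk8-1 and 27.3, 25.95 and 31.4 in the double mutant. Every mutant group was below WT, and the double mutant was below both single mutants with no overlap. PIP2-2 fell by 0.39 ± 0.086 (adjusted p = 0.00288) in ref4-1, 0.55 ± 0.086 (adjusted p = 5.91e-05) in ref4-3, 0.51 ± 0.087 (adjusted p = 0.000347) in cdk8-1 and 1.1 ± 0.089 (adjusted p = 1.7e-08) in the double mutant on the log2 scale. PIP2-3 averaged 22.6 ± 3.32 CPM in WT and 9.62 ± 0.548 in the double mutant, where it fell by 1.24 ± 0.16 (adjusted p = 4.64e-06). With the counts of both genes summed, the log2 fold changes against WT were -0.31 for ref4-1, -0.57 for ref4-3, -0.56 for cdk8-1 and -1.14 for the double mutant.

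Of the 5 vacuolar TIP genes tested, 4 were called lower in each genotype with a ref4 allele and 3 in cdk8-1. TIP2-1 (AT3G16240, chr3:5505360-5507050, plus strand), which carries water and ammonia, had 322, 301 and 317 CPM in WT, 130.4, 126 and 155 in ref4-1 and 85.4, 80.98 and 83.7 in ref4-3. Its values were 266, 230.4 and 226 in cdk8-1 and 109, 96.8 and 108 in ref4-3 cdk8-1. The 5 groups did not overlap, with WT highest and ref4-3 lowest. TIP2-1 fell by 1.19 ± 0.080 (adjusted p = 6.23e-09) in ref4-1, 1.91 ± 0.082 (adjusted p = 6.08e-12) in ref4-3, 0.38 ± 0.078 (adjusted p = 0.00184) in cdk8-1 and 1.58 ± 0.081 (adjusted p = 4.02e-11) in the double mutant on the log2 scale. An opposite-strand gene, AT3G16250, overlaps 120 of its 1189 exon bases and averaged 105 CPM in WT and 98.0 to 112 CPM in the mutants. Whether its reads could enter the TIP2-1 count depends on the strand setting, which is not given in the sources used here.

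TIP1-2 (AT3G26520, chr3:9722443-9723904, minus strand), the most abundant aquaporin of these rosettes, had 1121, 1086 and 959 CPM in WT, 693, 693 and 760.2 in ref4-1 and 488, 571 and 452 in ref4-3. It had 971, 849 and 864 in cdk8-1 and 517, 431 and 505 in the double mutant. ref4-3 and the double mutant were lowest and overlapped each other, ref4-1 lay between them and WT, and cdk8-1 overlapped WT. TIP1-2 fell by 0.56 ± 0.092 (adjusted p = 0.00024) in ref4-1, 1.07 ± 0.093 (adjusted p = 6.65e-08) in ref4-3 and 1.12 ± 0.093 (adjusted p = 2.45e-08) in the double mutant. In cdk8-1 the log2 fold change was -0.24 ± 0.092 (adjusted p = 0.0788).

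TIP1-1, a close relative long used as a vacuolar membrane marker, averaged 477 ± 17.4 CPM in WT, with 295 ± 43.8 for ref4-1 and 235 ± 25.6 for ref4-3. Means were 352 ± 22.8 for cdk8-1 and 211 ± 23.6 for the double mutant. TIP1-1 fell by 1.02 ± 0.10 (adjusted p = 3.26e-07) in ref4-3, 0.44 ± 0.10 (adjusted p = 0.00441) in cdk8-1 and 1.18 ± 0.10 (adjusted p = 4.23e-08) in the double mutant. TIP2-2 averaged 70.8 ± 6.65 CPM in WT and 39.1 ± 3.604 in cdk8-1, where it fell by 0.86 ± 0.15 (adjusted p = 0.000336), the largest fall among TIP genes in that genotype. In the double mutant TIP2-2 averaged 27.4 ± 4.897 CPM and fell by 1.38 ± 0.15 (adjusted p = 6.57e-07). TIP4-1, a low member at 1.67 ± 0.211 CPM in WT, stood at 2.63 ± 0.667 in ref4-1 and 2.44 ± 0.206 in ref4-3, and its log2 fold changes of 0.62 and 0.55 did not pass the test (adjusted p = 0.112 and 0.117).

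Among the NIP genes, NIP5-1 (AT4G10380, chr4:6431161-6435396, minus strand), a boric acid channel known from boron-starved roots, rose in the double mutant. It had 8.68, 5.49 and 7.905 CPM in WT and 9.44, 8.58 and 7.71 in cdk8-1. The ref4-1 libraries had 6.29, 6.81 and 8.54 and the ref4-3 libraries 9.01, 8.64 and 8.99. The ref4-3 cdk8-1 libraries had 13.6, 13.7 and 12.6, above all 12 others. The log2 fold change was 0.85 ± 0.14 (adjusted p = 8.04e-05) against WT, 0.58 ± 0.13 (adjusted p = 0.0024) against ref4-3 and 0.63 ± 0.14 (adjusted p = 0.00167) against cdk8-1. In the single mutants it was 0.27 ± 0.15 (adjusted p = 0.154) in ref4-3 and 0.22 ± 0.15 (adjusted p = 0.346) in cdk8-1. The test of whether both mutations added up gave an interaction of 0.36 ± 0.20 (adjusted p = 0.349).

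NIP1-1, which in Arabidopsis admits arsenite, was near or below 1 CPM in WT and in both ref4 alleles. It had 0.344, 0.845 and 0.505 CPM in WT, 2.36, 2.03 and 2.39 in cdk8-1 and 1.29, 1.27 and 1.53 in the double mutant. Both groups with cdk8-1 were above all WT libraries. NIP1-1 rose by 1.98 ± 0.36 (adjusted p = 0.000586) in cdk8-1 and by 1.25 ± 0.38 (adjusted p = 0.0127) in the double mutant on the log2 scale. The second call was lost without WT replicate 1 (adjusted p = 0.0614). The gene passed the filter through libraries of cdk8-1, ref4-3 cdk8-1 and ref4-3, so its difference is in part what let it be tested. Root marker sums, like the xylem marker sums above, were higher than WT in cdk8-1, where NIP1-1 and PIP2-4 rose. However, root marker sums overlapped WT in the double mutant. Summed over 8 genes the root markers stood at 173 to 245 CPM for WT, 122 to 182 for ref4-1, 128 to 151 for ref4-3, 317 to 389.8 for cdk8-1 and 168 to 207 for the double mutant. Of these 8 genes 1 passed the filter, PYK10, a beta-glucosidase of endoplasmic reticulum bodies, and the root hair genes EXPA7 and LRX1 were at 0 counts in all libraries. Their part in the result was not tested.

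NIP7-1, a boric acid channel of anthers, was detected at 22 counts or fewer per library. It had 0.774, 0.9297 and 0.4205 CPM in WT, 0.2095, 0.245 and 0.0762 in ref4-3, 1.85, 1.75 and 1.51 in cdk8-1 and 0.714, 0.571 and 0.657 in the double mutant, against a floor of 3 counts at 0.179 to 0.313 CPM. The cdk8-1 libraries were above all others and ref4-3 below WT, with 7 counts in its 3 libraries together. NIP7-1 rose by 1.26 ± 0.39 (adjusted p = 0.0274) in cdk8-1, a call lost with DESeq2 and without WT replicate 1 or WT replicate 3 (adjusted p up to 0.118). The gene passed the filter only through its 3 cdk8-1 libraries, so its high level there let it be tested. That p-value is therefore no independent support for the rise. NIP7-1 fell by 1.95 ± 0.59 (adjusted p = 0.0135) in ref4-3, a call lost without WT replicate 2 or ref4-3 replicate 3 (up to 0.0625). Flower and pollen markers summed to 1.60 to 3.21 CPM in WT, 1.22 to 2.12 in ref4-3, 2.28 to 3.60 in cdk8-1 and 0.888 to 2.07 in the double mutant over 7 genes, 1 of which passed the filter. Their part in the result was not tested. NIP6-1, the boric acid channel of shoot nodes, averaged 6.63 ± 1.85 CPM in WT and 4.89 to 7.55 in the mutants, and NIP1-2 averaged 13.6 ± 2.65 in WT and 11.4 to 16.0 in the mutants. Neither passed the test against WT.

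The SIP genes were divided. SIP1-1 had 54.2, 51.4 and 52.8 CPM in WT and 59.8, 52.7 and 58.2 in cdk8-1. Its values were 39.1, 42.4 and 39.8 in ref4-1, 40.8, 41.2 and 39.3 in ref4-3 and 44.6, 43.7 and 45.2 in the double mutant. Groups with a ref4 allele were below all others. SIP1-1 fell by 0.38 ± 0.061 (adjusted p = 0.000166) in ref4-1, 0.39 ± 0.061 (adjusted p = 6.35e-05) in ref4-3 and 0.25 ± 0.060 (adjusted p = 0.00278) in the double mutant, the last being lost with library-total scaling (adjusted p = 0.097).

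SIP2-1 had 25.3, 22.5 and 24.4 CPM in WT, 24.4, 26.01 and 23.7 in ref4-3 and 24.4, 23.4 and 26.05 in the double mutant, all overlapping, and its log2 fold changes against WT lay between 0.01 and 0.10 with SEs of 0.076 to 0.079. The opposite-strand gene AT3G56940 overlaps 11.4% of SIP2-1 exon bases and averaged 580 to 1174 CPM. SIP1-2 was low, with 2.83 ± 0.302 CPM in WT, 1.43 ± 0.717 in ref4-3 and 1.204 ± 0.355 in the double mutant, and fell by 0.98 ± 0.32 (adjusted p = 0.0225) and 1.23 ± 0.33 (adjusted p = 0.00562). The ref4-3 call was lost without WT replicate 2 or ref4-3 replicate 3 (adjusted p up to 0.109). In cdk8-1 against WT, 0 of 3 SIP genes were called by edgeR, DESeq2 or voom, and 0 had an unadjusted p under 0.05.

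**Figure D3:**
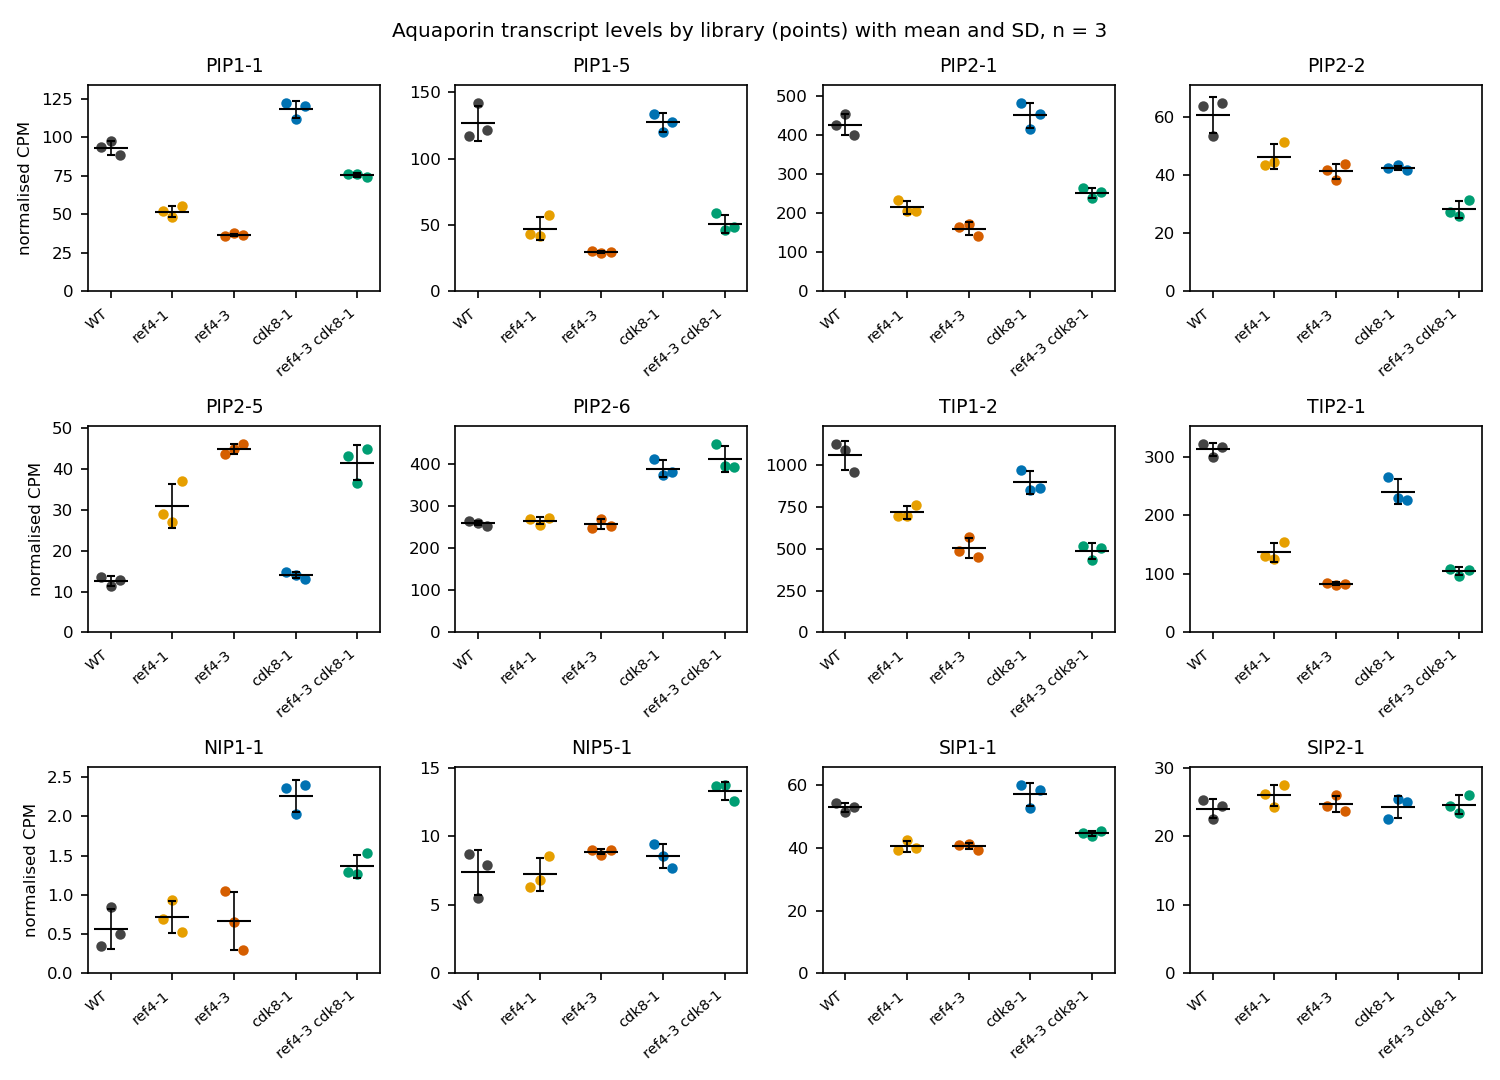
Normalised CPM of 12 aquaporins in each library (points) with the group mean (line), by genotype, on linear axes from 0. PIP1-5, PIP2-1 and TIP2-1 are low in every library with a ref4 allele, PIP2-5 is high in the same libraries, PIP2-6 is high in the libraries with cdk8-1, and NIP5-1 is high in the double mutant alone.

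The double mutant allows the effect of cdk8-1 to be read in ref4-3 plants as well as in WT plants. Added to ref4-3, cdk8-1 raised 12 of 26 tested aquaporins and lowered 2, against 33% of all genes called (15.9% higher and 17% lower), with a median log2 fold change of 0.11 against 0.01. Without NIP1-1 and NIP7-1 the counts were 10 and 2 of 24. PIP genes supplied 7 of the rises and both falls, NIP genes 4 rises and TIP genes 1. DESeq2 called 2 NIP genes higher, without NIP1-1 and NIP1-2. PIP1-1 rose by 1.04 ± 0.063 (adjusted p = 1.25e-09), PIP1-5 by 0.78 ± 0.11 (adjusted p = 3.16e-05), PIP2-1 by 0.65 ± 0.083 (adjusted p = 7.01e-06), PIP2-6 by 0.68 ± 0.064 (adjusted p = 1.93e-07) and PIP2-4 by 1.32 ± 0.25 (adjusted p = 0.000519) on the log2 scale. TIP2-1 rose by 0.33 ± 0.081 (adjusted p = 0.00451), while TIP1-2 at -0.06 ± 0.092 (adjusted p = 0.688) and TIP1-1 at -0.16 ± 0.10 (adjusted p = 0.268) did not pass the test. PIP2-2 and PIP2-3 were the genes that fell, by 0.55 ± 0.090 (adjusted p = 0.000118) and 0.63 ± 0.16 (adjusted p = 0.00531). The rises of PIP1-2 (adjusted p = 0.0168), NIP1-1 (adjusted p = 0.0385), NIP1-2 (adjusted p = 0.0442) and NIP7-1 (adjusted p = 0.0218) were each lost when 1 or another library was left out, with adjusted p up to 0.0739, 0.181, 0.168 and 0.0922. For 16 of 26 members the 3 libraries of ref4-3 cdk8-1 did not overlap those of ref4-3, against 46.8% of all genes.

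An interaction term asked whether the effect of cdk8-1 in ref4-3 plants differed from its effect in WT plants. It was called for 4 of 26 aquaporins, all positive, against 5.13% of all genes (3.07% positive and 2.05% negative). It was 0.70 ± 0.087 (adjusted p = 0.000167) for PIP1-1, 0.78 ± 0.15 (adjusted p = 0.0064) for PIP1-5, 0.57 ± 0.12 (adjusted p = 0.00741) for PIP2-1 and 0.70 ± 0.11 (adjusted p = 0.00147) for TIP2-1 on the log2 scale. These are members that ref4-3 lowered strongly, but TIP1-1 and TIP1-2, which it also lowered, had no called interaction. The fall in ref4-3 and the interaction share the ref4-3 and WT libraries and so are not independent. cdk8-1 raised each of the 4 called genes in ref4-3 plants. In WT plants PIP1-1 rose by 0.34, PIP1-5 and PIP2-1 did not pass the test and TIP2-1 fell. Even so, all 4 remained below WT in the double mutant. For negative interactions edgeR called 0 of 26, with 1 at an unadjusted p under 0.05, and DESeq2 and voom called 0. PIP2-5, the gene that rose most with ref4-3, had an interaction of -0.27 ± 0.16 (adjusted p = 0.384), and PIP2-6 one of 0.10 ± 0.090 (adjusted p = 0.6).

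**Figure D4:**
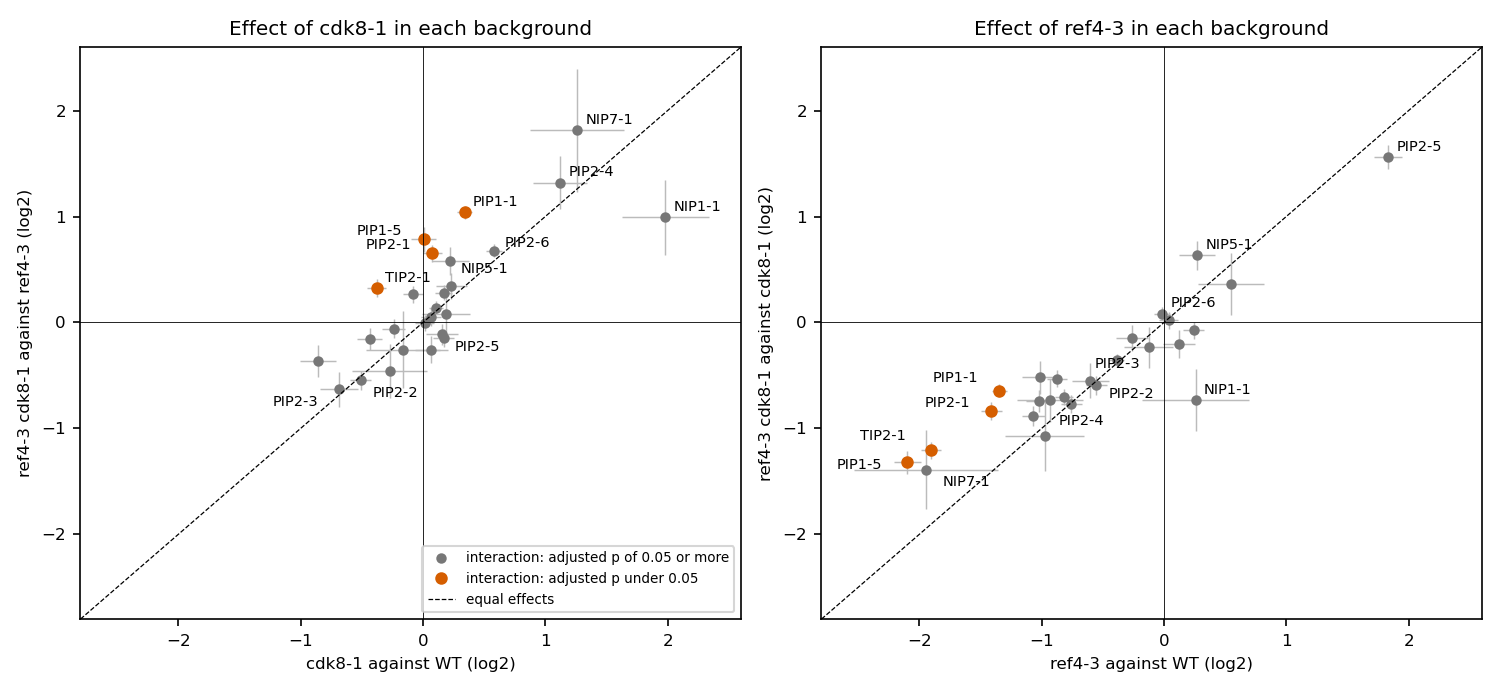
Left, log2 effect of cdk8-1 on each tested aquaporin in WT plants (x axis) and in ref4-3 plants (y axis), and right, log2 effect of ref4-3 in WT plants (x axis) and in cdk8-1 plants (y axis), with the diagonal marking equal effects and orange points the 4 genes with a called interaction. PIP1-1, PIP1-5, PIP2-1 and TIP2-1 lie above the diagonal in both panels, and PIP2-5 lies close to it. The height above the diagonal is the interaction in each panel, so the right panel is no second test of it.

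The effect of ref4-3 in cdk8-1 plants was read from the double mutant against cdk8-1. Here 2 aquaporins were higher and 16 lower, against 32.8% of all genes (16.4% in each direction), with a median log2 fold change of -0.57 against 0.02. Without NIP1-1 and NIP7-1 the counts were 2 and 15 of 24. PIP1-5 fell by 1.32 ± 0.11 (adjusted p = 3.64e-08) and TIP2-1 by 1.21 ± 0.080 (adjusted p = 2.9e-09), TIP1-2 by 0.89 ± 0.093 (adjusted p = 9.45e-07) and PIP2-1 by 0.84 ± 0.082 (adjusted p = 4.44e-07). PIP2-5 rose by 1.56 ± 0.11 (adjusted p = 6.68e-09) and NIP5-1 was the other gene that rose. The calls of SIP1-2, PIP2-3, TIP2-2 and PIP2-4 were lost without 1 or another library, with adjusted p up to 0.08, 0.0868, 0.0912 and 0.0511. For 19 of 26 members the groups did not overlap, against 48.5% of all genes.

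The MED5B alleles were compared directly as well. In ref4-3 against ref4-1, 1 aquaporin was higher and 8 were lower, against 10.9% of all genes (4.52% higher and 6.39% lower), with a median log2 fold change of -0.18 against 0.00. With library totals the split was 2 higher and 6 lower. TIP2-1 was lower in ref4-3 than in ref4-1 by -0.71 ± 0.081 (adjusted p = 3.02e-05), PIP1-5 by -0.66 ± 0.12 (adjusted p = 0.00153), TIP1-2 by -0.51 ± 0.092 (adjusted p = 0.00234), PIP1-1 by -0.49 ± 0.065 (adjusted p = 0.000137) and PIP2-1 by -0.42 ± 0.083 (adjusted p = 0.00405) on the log2 scale. PIP2-5 was higher in ref4-3 by 0.55 ± 0.10 (adjusted p = 0.00218). SIP1-1, at -0.00 ± 0.061 (adjusted p = 0.987), did not pass the test. PIP2-7 (-0.33 ± 0.071 (adjusted p = 0.00771)) lost its call when only both groups were fitted, with an adjusted p of 0.0564. The calls of TIP1-1 (adjusted p = 0.0454) and PIP2-3 (adjusted p = 0.0439), whose groups overlap, were lost under 14 and 11 alternatives. For 9 of 26 members the groups did not overlap, against 27.9% of all genes.

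The 250 bases before the annotated start are shown for the PIP gene that fell most in ref4-3, PIP1-5, and for the one that rose most, PIP2-5, since they moved in opposite directions in the same libraries. Both are read 5′ to 3′ on the gene's strand from TAIR10.1, at chr4:12220391-12220640 and chr3:20301509-20301758, and capitals mark a match to CCGAC, the core of drought and cold response elements, which reads GTCGG on this strand.
PIP1-5 upstream: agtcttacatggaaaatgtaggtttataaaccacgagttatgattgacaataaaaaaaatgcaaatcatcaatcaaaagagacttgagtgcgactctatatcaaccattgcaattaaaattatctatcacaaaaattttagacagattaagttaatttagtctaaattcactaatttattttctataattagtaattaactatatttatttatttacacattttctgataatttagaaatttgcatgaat
PIP2-5 upstream: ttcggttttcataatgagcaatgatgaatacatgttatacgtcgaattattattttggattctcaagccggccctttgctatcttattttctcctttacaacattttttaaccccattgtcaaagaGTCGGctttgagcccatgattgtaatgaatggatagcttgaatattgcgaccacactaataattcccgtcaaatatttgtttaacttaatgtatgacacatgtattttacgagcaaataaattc
Motifs were searched on both strands in the 250 bases upstream of 27443 genes. CCGAC was present upstream of 3285 of them and in 4 of 35 aquaporins, namely PIP1-3, PIP2-5, TIP1-1 and TIP1-2, which moved in both directions. ACGTG, the core of abscisic acid response elements, was present in 22.9% of all genes and in 4 of 35 aquaporins (TIP1-1, TIP3-1, TIP5-1 and SIP1-1). CACGTG, the G-box, which contains ACGTG, was present in 6.49% of genes and 0 of 35 aquaporins. TGTCTC, an auxin response element, was present in 10.9% of genes and in SIP2-1, and AAAATATCT, the evening element, in 2.36% of genes and 0 of 35 aquaporins.

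Genes that act on PIP proteins were followed as a separate list of 11, all tested. They include enzymes that mark PIP proteins for degradation and proteins that bring them to the membrane. RMA2 was the 1 gene called in ref4-1 and SYP121 the 1 called in cdk8-1, while 4 were higher and 2 lower in ref4-3 and again in the double mutant. That is 9.09% of the list in ref4-1 and in cdk8-1, against 20.9% and 19.8% of all genes, and 54.5% in ref4-3 and in the double mutant, against 39.9% and 42.6%. The median log2 fold changes of the list were 0.17 for ref4-1, 0.16 for ref4-3, -0.01 for cdk8-1 and -0.05 for the double mutant. TSPO, a stress-induced membrane protein that in Arabidopsis binds PIP2-7 and leads it to degradation, had 1 count in all WT libraries together, 3 in those of cdk8-1 and 14 in those of ref4-1. Its libraries held 130 counts in ref4-3 and 242 in the double mutant. TSPO passed the filter through libraries of these genotypes, so its high level there is what let it be tested. Calls of TSPO are therefore no independent support for the counts and shares of the list in ref4-3 and the double mutant. RMA2, a ubiquitin ligase of the family that removes PIP2-1, averaged 16.6 ± 1.23 CPM in WT and 27.7 ± 0.694 in ref4-3, and rose by 0.64 ± 0.075 (adjusted p = 6.19e-06) in ref4-1, 0.74 ± 0.074 (adjusted p = 3.74e-07) in ref4-3 and 0.52 ± 0.075 (adjusted p = 1.82e-05) in the double mutant on the log2 scale. UBC32, a ubiquitin-conjugating enzyme of the endoplasmic reticulum that responds to drought, rose by 0.55 ± 0.062 (adjusted p = 1.63e-06) in ref4-3 and 0.37 ± 0.062 (adjusted p = 0.000103) in the double mutant. SYP121, a syntaxin that delivers PIP channels to the plasma membrane, averaged 47.4 ± 3.43 CPM in WT, 31.3 ± 1.63 in cdk8-1 and 25.4 ± 2.48 in the double mutant, and fell by 0.60 ± 0.085 (adjusted p = 5.55e-05) and 0.90 ± 0.085 (adjusted p = 1.22e-07).

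Proton pumps energise transport across the membranes in which PIP and TIP proteins sit, and 9 of them were tested. Of these, 5 were lower in ref4-1, 1 was higher and 5 were lower in ref4-3, 2 were lower in cdk8-1 and 1 was lower in the double mutant. The shares called were 55.6% in ref4-1 against 20.9% of all genes, 66.7% against 39.9% in ref4-3, 22.2% against 19.8% in cdk8-1 and 11.1% against 42.6% in the double mutant. Their median log2 fold changes were -0.22 for ref4-1, -0.22 for ref4-3, -0.03 for cdk8-1 and -0.10 for the double mutant. The vacuolar subunits VHA-a3 and VHA-A fell by 0.28 ± 0.057 (adjusted p = 0.000823) and 0.22 ± 0.056 (adjusted p = 0.00383) in ref4-3, and the vacuolar pyrophosphatase AVP1 fell by 0.30 ± 0.079 (adjusted p = 0.00581) there and by 0.37 ± 0.079 (adjusted p = 0.000863) in the double mutant. The plasma membrane pump AHA1 rose by 0.27 ± 0.062 (adjusted p = 0.00206) in ref4-3 and fell by 0.30 ± 0.062 (adjusted p = 0.00187) in cdk8-1. These log2 changes were smaller than those of TIP1-1, TIP1-2 and TIP2-1 in ref4-3.

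Borate exporters, which move boron on after NIP5-1 has let it in, form a family of 7 genes, of which 4 were tested. Of these, 2 were higher in ref4-1 and 2 in ref4-3, 1 was higher in cdk8-1, and 2 were higher and 1 lower in the double mutant, with medians of 0.29, 0.31, 0.10 and 0.39. The shares of the 4 called were 50%, 50%, 25% and 75%, against 20.9%, 39.9%, 19.8% and 42.6% of all genes. With so few genes, the shares in ref4-3 and in cdk8-1 are near those of all genes. BOR1, which loads boron into the xylem, averaged 34.5 ± 2.32 CPM in WT, 49.97 ± 5.78 in cdk8-1 and 48.1 ± 2.23 in the double mutant, and rose by 0.54 ± 0.079 (adjusted p = 8.02e-05) and 0.48 ± 0.078 (adjusted p = 7.73e-05). BOR2 rose by 0.47 ± 0.13 (adjusted p = 0.00865) in the double mutant. BOR3 rose by 0.31 ± 0.063 (adjusted p = 0.000641) in ref4-3 and fell by 0.27 ± 0.064 (adjusted p = 0.0022) in the double mutant, and BOR5 rose by 0.66 ± 0.17 (adjusted p = 0.00814) in ref4-1 and 0.53 ± 0.17 (adjusted p = 0.0163) in ref4-3.

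The 9 aquaporins that did not pass the filter were nearly absent from these rosettes. Summed over all 15 libraries, the seed genes TIP3-1 and TIP3-2 had 3 and 2 counts, and the pollen genes TIP1-3, TIP5-1, NIP4-1 and NIP4-2 had 2, 0, 0 and 0. TIP2-3 had 6 counts, NIP2-1 had 3 and NIP3-1 had 27, with at most 0.421 CPM in a library. NIP3-1 was the member just outside the filter and NIP7-1, with 132 counts and at most 1.77 CPM, the one just inside. A count of 0 allows up to 3 counts, or 0.179 to 0.313 CPM in a library, and covers counting error only. NIP4-1 and NIP4-2 are 88.1% identical in coding sequence, and NIP2-1 lies in 95.0% of its exon bases opposite a long non-coding gene, so reads of these genes could be lost or shared.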

How the data were processed

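The authors deposited raw counts of reads in each gene for 15 libraries, with no normalisation. The submitters' processing notes name Trimmomatic, TopHat2 2.1.0, HTSeq 0.6.1, edgeR and the TAIR10 build. The libraries came from a stranded kit, per the labels' protocols. How HTSeq treated strand and ambiguous reads, and which annotation it used, is not given in the sources used here. Altogether 5 rows name no gene and stayed out: as a share of the counts in genes, reads outside any feature made up 0.667 to 1.05%, ambiguous reads 1.63 to 6.67% and multiply placed reads 2.37 to 6.62%.

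Counts were analysed with edgeR 4.0.16 in R 4.3.3. Genes above 1 CPM in at least 3 of 15 libraries were kept, scaled by TMM (factors 0.937 to 1.08) and fitted in 1 quasi-likelihood model of genotype, with p adjusted over 18935 genes, a threshold of 0.05 and edgeR's default prior count. SEs are log2 fold changes over the square root of F. Between replicates, the biological coefficient of variation had a median of 6.73%. The 8 contrasts were the 4 mutants against WT, the double mutant against each of its single mutants, ref4-3 against ref4-1, and the interaction. The script was tested on simulated data. Alternatives were DESeq2 1.42.0, limma voom 3.58.1, other size factors, other filters, only the groups compared, a replicate block, summed PIP2-2 and PIP2-3, and leaving out each library.

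Replicate numbers did not pair the samples: correlations of deviations ran from -0.19 to 0.18. The series states biological triplicates, so p-values measure the spread between pools of 5 rosettes. The members and lists were chosen with earlier results of these data known. Every aquaporin could be named, and from each other list at most the 4 genes with the smallest adjusted p against WT. Sequences and positions are from RefSeq TAIR10.1, in which all 35 loci were found.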

Additional observations from a re-analysis of the deposited data

Results flagged for a closer look

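The effect of cdk8-1 differed between ref4-3 plants and WT plants for 4 aquaporins by the interaction term of the edgeR model, with p adjusted over all 18935 genes. For PIP1-1 the effect in ref4-3 plants exceeded that in WT plants by 0.7001 on the log2 scale (adjusted p = 0.000167, 4.83e-09 to 0.000989 over the alternatives). For PIP1-5 the difference was 0.7767 (adjusted p = 0.0064, 0.000131 to 0.0239 over the alternatives). PIP2-1 differed by 0.5748 (adjusted p = 0.00741, 0.000118 to 0.0284 over the alternatives) and TIP2-1 by 0.7027 (adjusted p = 0.00147, 6e-07 to 0.00718 over the alternatives). In each of the 4 genes the 3 double mutants were above the 3 ref4-3 libraries. No group had more than 3 libraries, so single outlying libraries were not tested for.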

How the results depend on the processing

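Other size factors, DESeq2, limma voom, no filter and a replicate block kept every whole-family count of called aquaporins within 1.5 times. By subfamily, DESeq2 called 2 NIP genes higher in the double mutant against ref4-3, where edgeR called 4. In cdk8-1 against WT it called 1 NIP gene higher, where edgeR called 2. Scaling by library totals, chosen after seeing the data, moved the median of all genes against WT to 0.11 for ref4-1, 0.19 for ref4-3 and 0.14 for the double mutant, and to 0.13 for the double mutant against cdk8-1. With it 6 aquaporins were higher in ref4-3 against WT and 2 in ref4-3 against ref4-1. Sums became 74.72% (PIP) and 91.29% (SIP) of WT in ref4-1, 69.73% (PIP), 50.23% (TIP), 106.0% (NIP) and 93.63% (SIP) in ref4-3, and 85.95% (PIP), 136.4% (NIP) and 95.9% (SIP) in the double mutant. PIP2-6 in ref4-3 against WT turned to 0.15.

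With only the groups compared, 1 aquaporin was higher in ref4-3 against WT and 5 were lower in ref4-3 against ref4-1, while calls over all genes went from 3962 to 2552 for ref4-1 against WT and from 2064 to 637 for ref4-3 against ref4-1. A filter of 5 CPM left 3 higher in cdk8-1, since fewer genes were tested, and summing PIP2-2 and PIP2-3 left 1 lower in the double mutant against ref4-3 by construction. For the other values the cause was not tested.

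Leaving out each library gave 1 to 2 higher calls in ref4-1, in ref4-3 and in ref4-3 against ref4-1, 0 to 1 negative interactions, and NIP sums of 118.0 to 132.5% of WT in cdk8-1 and 118.2 to 132.8% in the double mutant. Higher calls in the double mutant against ref4-3 ran from 8 to 12. Over all genes, ref4-3 against ref4-1 gave 929 calls without ref4-3 replicate 3, and the interaction gave 626 without WT replicate 2, 541 without cdk8-1 replicate 2 and 625 without double mutant replicate 1, against 971.

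Replicate numbers were shared between genotypes but did not pair the samples, since 5 of 30 pairs of libraries correlated above 0.1 and 6 of 15 libraries correlated best with their own number. The replicate block left 204 of 208 member values as they were, lost the calls of NIP1-2 in the double mutant against ref4-3 and TIP1-1 in ref4-3 against ref4-1, and added 2. Members under about 3 CPM rest on few counts, and for these a difference may not be detectable at this depth.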
